A study of Homo sapiens with 2 samples.

Results

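The ATP-binding cassette (ABC) genes outside sterol efflux were followed in FFA-treated HepG2 cells with and without 9-cis-RA. They were taken as the protein-coding genes named ABC with a letter from A to G and a number, plus the chloride channel gene CFTR (a subfamily C gene), without the sterol and bile salt efflux genes ABCA1, ABCG1, ABCG5, ABCG8 and ABCB11 and without TAP1 and TAP2. Of the 60623 entries in the tables, of which 19916 were protein-coding, 39 genes of this family are described. Subfamily A held 11 of them, B 7, C 12, D 3, E 1, F 3 and G 2. The rule itself uses names and no measured values.

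ABC proteins couple the binding and hydrolysis of ATP to the movement of a substrate across a membrane. In hepatocytes they move phospholipid, bilirubin conjugates and drugs into bile, carry fatty acyl-CoA into peroxisomes and serve heme and iron metabolism in mitochondria. Subfamilies E and F lack a membrane part and act on ribosomes.

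RNA was sequenced from 2 libraries of HepG2, a human hepatocellular carcinoma line labelled as wild type, 1 library per group. Both groups received 1 mM FFA, a mixture of oleic and palmitic acid bound to albumin, for 24 h, and the FFA + 9-cis-RA group also received 10 μM 9-cis-RA, a vitamin A derivative that binds RXR and RAR nuclear receptors. Cells without FFA were not analysed here, so every value below compares 2 states of lipid-loaded cells. Both libraries carry the label of batch 1, and the labels name no separate cultures.

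The tables held 60821539 counted fragments for FFA and 57669670 for FFA + 9-cis-RA. The retinoid-responsive genes CYP26A1 (4 and 709 counts), RARB (6 and 46) and DHRS3 (1126 and 1999) each had more counts with 9-cis-RA. All 9 hepatocyte and hepatoma markers were detected, between 341 counts of TTR and 294592 of SERPINA1 in FFA. Between the libraries 4 of them were higher and 5 lower with 9-cis-RA, from AFP at a log2 fold change of -0.99 to FGB at 0.84. Among 8 markers of other liver cells, PTPRC and LRAT were at 0, COL1A1 had 1 and 2 counts, CD68 5 and 15 and COL3A1 12 and 9. PECAM1, VWF and ACTA2 had 52, 184 and 1186 counts in FFA and 29, 118 and 773 with 9-cis-RA, so the summed markers stood at 1440 and 946. The part of these shifts in the ABC values was not tested. Both libraries are labelled as the HepG2 line, so these markers are not read as numbers of other liver cells. In bulk RNA, fewer cells with a transcript and less RNA per cell cannot be told apart.

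Levels of different genes are given as FPKM, fragments per kilobase of exon scaled to the total of the library. Differences between the libraries are given as the log2 fold change, the log2 ratio of FFA + 9-cis-RA to FFA after scaling by DESeq2 size factors and adding 1 to each normalized count. The interval beside it is an exact 95% Clopper-Pearson interval that covers counting error only. Since each group has 1 library, replicates cannot be compared and no test was made, and a difference is one between these 2 libraries.

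Of the 39 genes, 29 had at least 10 counts over both libraries and were compared. Among them, 26 had at least 200 counts, and the remaining 3, ABCA6, ABCA10 and ABCA12, had 25 or fewer. Of the 10 that were not compared, ABCB5, CFTR and ABCD2 were at 0 in both libraries and 7 had 1 to 9 counts. FPKM was at least 1 in both libraries for 23 genes, at least 10 for 8 and at least 20 for 5. These 5 were ABCC2, ABCF1, ABCD3, ABCE1 and ABCB1, 1 gene each from subfamilies B to F and none from A or G.

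**Figure D1:**
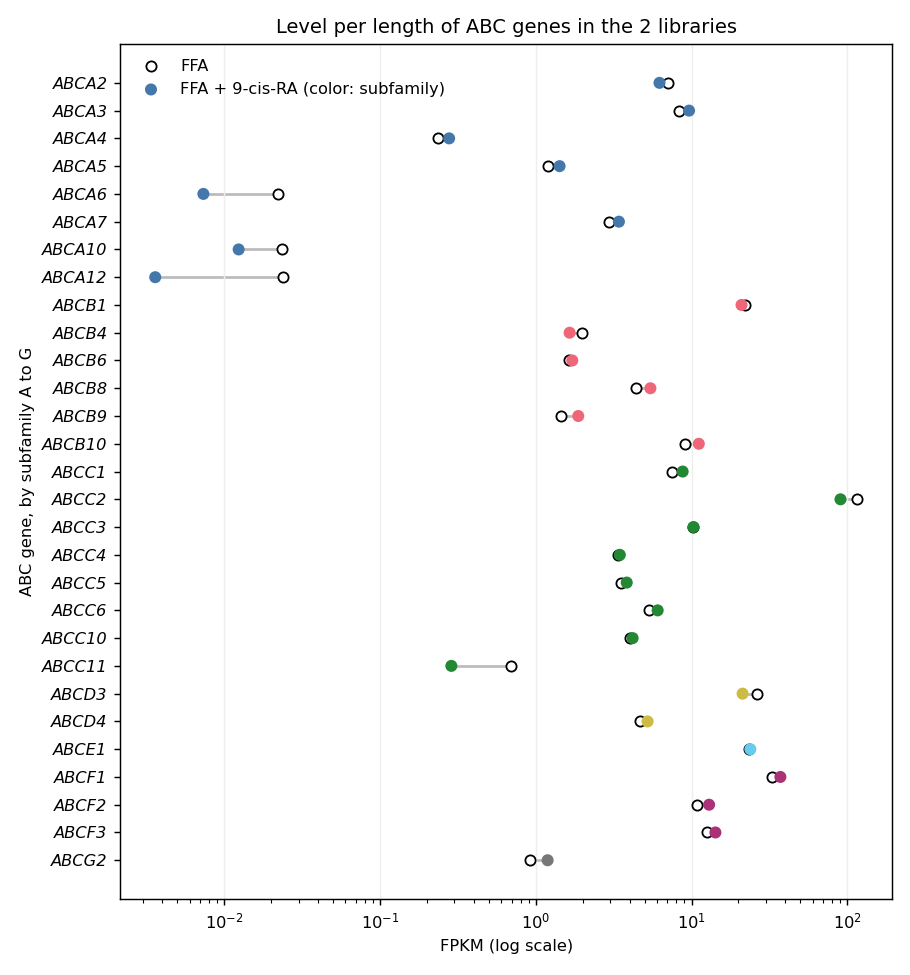
Level of the 29 compared ABC genes in FPKM on a log axis, with 1 row per gene ordered by subfamily, an open point for FFA and a filled point for FFA + 9-cis-RA. ABCC2 lies above every other gene in both libraries, at 116 and 90.4 FPKM, and ABCA6, ABCA10 and ABCA12 lie below 0.1 in both.

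No gene of the family was above 1 on the log2 scale (0 of 29, against 3.37% of the 20431 genes compared), and ABCA6, ABCA12 and ABCC11 were below -1 (3 of 29, against 4.9%). At the smaller fold of 0.5, with the interval on the same side of 0, no gene was higher (0 of 29, against 4.33%) and the same 3 genes were lower (3 of 29, against 8.45%). Over genes with at least 200 counts, 0 of 26 were higher by this rule (against 2.79% of 13079 genes) and 1 of 26 was lower (ABCC11, against 6.48%). These shares were small numbers of genes close to the background, and 25 of the 29 genes differed by less than 0.5.

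Smaller differences were frequent, and more of them were upward. The interval lay above 0 for 13 of 29 genes (against 22.5%) and below 0 for 8 (against 25.7%). Since genes with more counts have narrower intervals, the 26 genes with at least 200 counts were set against the 13079 genes of the same minimum. Here 13 of 26, or 50%, had an interval above 0 (against 31.1%) and 6 of 26, or 23.1%, below 0 (against 33.2%). The upward share of the intervals that left out 0 was 68.4% in the family and 48.3% in all genes. This split depends on the scaling, since with total counts it was 70% in the family and 60.8% in all genes. The family median of the log2 fold change was 0.070, beside -0.020 over all genes, and it came to -0.0027 once a trend on gene length was removed.

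**Figure D2:**
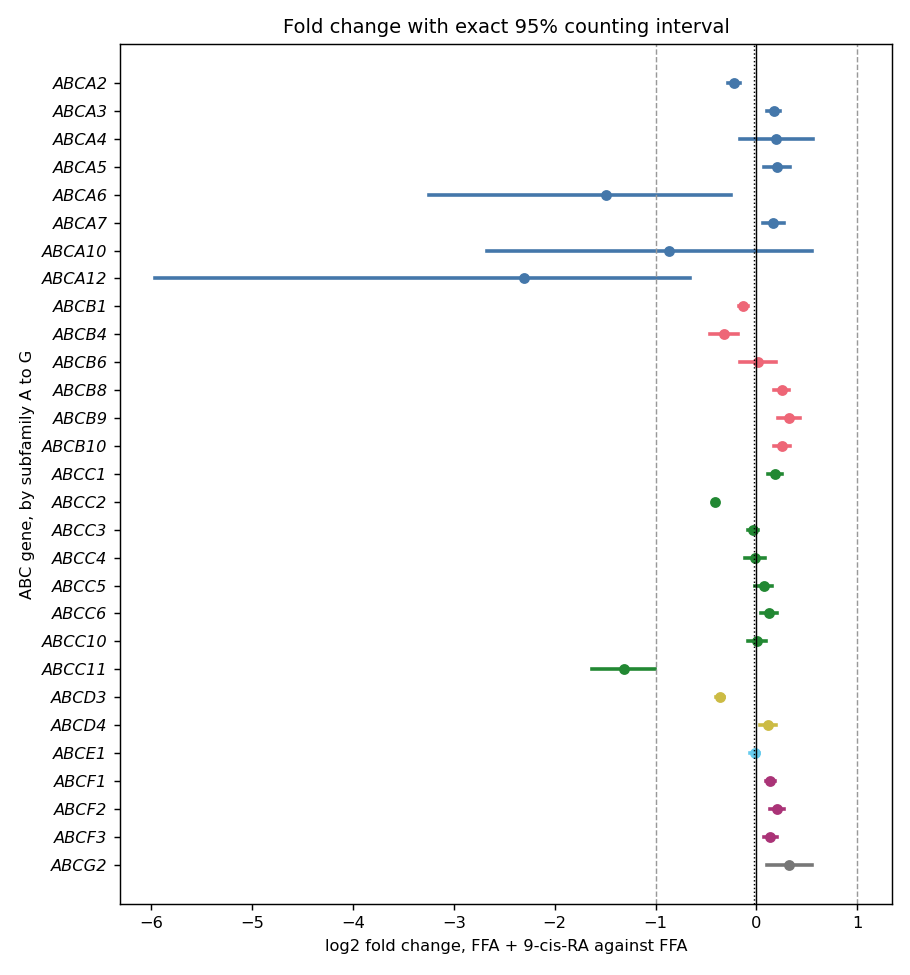
Log2 fold change of FFA + 9-cis-RA against FFA (horizontal axis) for the 29 compared genes by subfamily, with points for the value and bars for the exact 95% counting interval. Dashed lines mark -1 and 1 and the dotted line the median of all genes. ABCC11 is the 1 gene whose whole interval lies below -1, narrowly and under the DESeq2 scaling. ABCG2 is the highest point, at 0.33.

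The exporters of drugs and conjugates were led by ABCC2 (chr10:99782640-99852594, plus strand, GRCh38), the canalicular pump for bilirubin glucuronides and other conjugates also known as MRP2. ABCC2 had 55295 counts in FFA and 40865 in FFA + 9-cis-RA, or 116 and 90.4 FPKM. It was lower with 9-cis-RA by a fold of 0.753, or -0.41 on the log2 scale (interval -0.43 to -0.39). Its level per length was above that of 98.1% of the expressed genes in FFA. ABCC2 alone carried 39.3% of the counts of the 39 genes in FFA (exact interval 39.0 to 39.5) and 32.7% with 9-cis-RA (32.4 to 33.0). The summed counts of the family had the same direction, at 140760 and 124934, a log2 ratio of -0.14 (interval -0.16 to -0.13). The summed counts of all genes stood at -0.049. Without ABCC2 the sums were 85465 and 84069, at 0.0039 (-0.0099 to 0.018), an interval that included 0 under this scaling. The value depends on the scaling, since TMM moved the median of all genes up by 0.020 and total counts by 0.049. Per length, ABCC2 stood 11.4-fold above ABCC3 in FFA (11.1 to 11.7) and 8.79-fold with 9-cis-RA (8.55 to 9.03).

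The pregnane X and constitutive androstane receptors, which act on exporter genes, bind DNA as partners of RXR at repeats of a hexamer, and 9-cis-RA is an RXR ligand. The 250 bases before the RefSeq gene start (GRCh38.p14) are shown for the exporters ABCC2 and ABCC11 and the peroxisomal gene ABCD3, all lower with 9-cis-RA. Windows of genes that were higher are not shown, and a part of such sites in the differences was not tested. Capitals mark the hexamer AGGTCA or its form GGGTCA, and likewise the hexamer AGTTCA or its form GGTTCA, or the same letters on the opposite strand.
ABCC2 (chr10:99782390-99782639, plus strand): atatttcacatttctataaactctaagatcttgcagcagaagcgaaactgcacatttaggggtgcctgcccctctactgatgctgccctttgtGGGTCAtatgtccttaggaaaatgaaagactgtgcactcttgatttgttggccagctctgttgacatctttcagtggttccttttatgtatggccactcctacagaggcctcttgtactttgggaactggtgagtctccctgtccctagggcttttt
ABCC11 (chr16:48247540-48247789, minus strand): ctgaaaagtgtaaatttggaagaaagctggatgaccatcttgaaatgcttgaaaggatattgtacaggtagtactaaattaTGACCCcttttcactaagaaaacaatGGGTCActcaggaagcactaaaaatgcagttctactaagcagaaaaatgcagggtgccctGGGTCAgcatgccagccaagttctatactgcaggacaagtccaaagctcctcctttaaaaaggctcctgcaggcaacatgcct
ABCD3 (chr1:94418139-94418388, plus strand): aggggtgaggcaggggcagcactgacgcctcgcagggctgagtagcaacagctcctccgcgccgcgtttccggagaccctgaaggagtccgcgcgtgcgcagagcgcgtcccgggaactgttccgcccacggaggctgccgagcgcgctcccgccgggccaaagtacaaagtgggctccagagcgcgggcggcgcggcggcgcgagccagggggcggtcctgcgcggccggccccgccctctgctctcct

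The ABCC2 window held 1 hexamer, GGGTCA, whose first base lay 157 bases before the start. In the ABCC11 window GGGTCA occurred 3 times, at 169 bases before the start on the opposite strand and at 143 and 83 on the gene's strand. The GC-rich ABCD3 window, with 74.4% G and C, held none. Of the family, 32 genes had a window and 12 of those (37.5%) held at least 1 hexamer, beside 33.8% of the 35116 promoter windows of all genes. They were ABCA2, ABCA6, ABCA9, ABCB1, ABCC2, ABCC6, ABCC11, ABCD2, ABCD4, ABCF1, ABCG4 and CFTR. For the family 1 window per gene was taken, the nearest to the deposited gene start, while the share over all genes counts every window. The window of CFTR belonged to a start 14241 bases from the deposited one, that of ABCB9 6535 and that of ABCC9 1103. The genes with hexamers differed in both directions. The fold change interval lay above 0 for ABCC6, ABCD4 and ABCF1 and below 0 for ABCA2, ABCA6, ABCB1, ABCC2 and ABCC11. The others with a hexamer had too few counts to be compared. Of all genes compared, 22.5% had an interval above 0 and 25.7% below 0. In the whole family these were 13 and 8 of 29 genes. Genes with and without a hexamer were not tested against each other. A pair of hexamers in the same orientation with 0 to 8 bases between them was in 0 of the 32 windows and in 0.649% of all windows. Promoter windows of ABCA4, ABCA8, ABCB4, ABCB5, ABCC1, ABCC3 and ABCC8 were not used here. A match of letters describes the window and is not a binding site.

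ABCC11 (chr16:48166910-48247568, minus strand) was the gene of the family with the lowest log2 fold change among those with at least 200 counts. It encodes the apical exporter of the apocrine glands whose common variant sets the type of earwax. ABCC11 had 305 counts in FFA and 120 in FFA + 9-cis-RA, or 0.692 and 0.287 FPKM. Its log2 fold change was -1.31 (interval -1.64 to -1.01), a fold of 0.403. Under the DESeq2 scaling the whole interval lay below -1, as for 0.93% of all genes compared and for no other member. Its upper end of -1.009 was so near -1 that this depends on the scaling. TMM put the log2 fold change at -1.29 and total counts at -1.26. ABCC11 was a minor transcript in both libraries, and 1.19% of its exons overlap another gene on the same strand. Its neighbor ABCC12, 10891 bases away with no coding gene between, had 1 count and 0.

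The multidrug exporter ABCB1, or P-glycoprotein (chr7:87503633-87713323, minus strand), was the second exporter by level. It had 7820 and 7011 counts, or 22.1 and 20.9 FPKM, with a log2 fold change of -0.13 (interval -0.18 to -0.083). Both were thus lower with 9-cis-RA, and ABCC2 per length went from 5.24-fold of ABCB1 (5.12 to 5.36) to 4.32-fold (4.21 to 4.43).

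The remaining exporters differed in both directions or by little. ABCC1, the broadly expressed glutathione-conjugate exporter MRP1 (chr16:15949577-16143074, plus strand), had 3443 and 3831 counts, with a log2 fold change of 0.18 (0.11 to 0.25). ABCG2, the breast cancer resistance protein that also exports urate (chr4:88090150-88231628, minus strand), had 313 and 385 counts, or 0.919 and 1.19 FPKM. It was higher at 0.33 (0.11 to 0.55). ABCC3, the basolateral exporter of glucuronides to blood, had 5954 and 5706 counts and a log2 fold change of -0.034 (-0.086 to 0.019).
ABCC4 and ABCC5, which export cyclic nucleotides, had 1773 and 1724 counts and 2442 and 2515 counts. Their log2 fold changes were -0.013 (-0.11 to 0.084) and 0.070 (-0.011 to 0.15). ABCC10, or MRP7, had 1980 and 1952 counts, at 0.0071 (-0.084 to 0.098). For these 4 genes the interval included 0. Of the 9 exporters, 2 had an interval above 0, 3 below 0 and 4 on both sides. All 9 had at least 200 counts, where 31.1% of all genes lay above and 33.2% below 0, so these counts were near the background. Their median was -0.013 beside -0.020 over all genes.

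The receptors and partners listed as regulators of these exporters also differed in both directions. RXRA, a receptor for 9-cis-RA, had 8291 and 5978 counts and stood at a log2 fold change of -0.44 (-0.49 to -0.40). NR1I2, the pregnane X receptor, had 1508 and 1173 counts and stood at -0.33 (-0.45 to -0.22). RXRB, another RXR receptor for 9-cis-RA, was higher at 0.30 (0.22 to 0.38). ARNT, the partner of the aryl hydrocarbon receptor, was higher at 0.32 (0.22 to 0.42). NR1I3, the constitutive androstane receptor, had 13 and 18 counts. NFE2L2 stood at -0.11 (-0.14 to -0.081), KEAP1 at 0.15 (0.099 to 0.21) and AHR at -0.0055 (-0.082 to 0.071). None of these 8 genes passed 0.5 with an interval on the same side of 0. Of all genes compared, 4.33% were higher and 8.45% lower by this rule, so a count of 0 was near the background.

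Of the peroxisomal transporters described, ABCD3 was the gene with counts to compare. ABCD3 (chr1:94418389-94518666, plus strand), which imports branched and dicarboxylic acids and bile acid intermediates, had 12282 and 9392 counts, or 26.4 and 21.3 FPKM. It was lower with 9-cis-RA by a fold of 0.780, at -0.36 (interval -0.40 to -0.32). Scaling and trend corrections left it between -0.43 and -0.31. Its share of the family's counts was 8.73% in FFA (exact interval 8.58 to 8.87) and 7.52% with 9-cis-RA (7.37 to 7.67). ABCD2, a peroxisomal transporter of fatty acyl-CoA, was at 0 in both libraries.

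Most genes that act beside these transporters differed less. Of 9 genes of peroxisomal fatty acid oxidation and peroxisome import, 0 were past 0.5 in either direction, and their median was 0.045. Of all genes with at least 200 counts, 2.79% were higher and 6.48% lower by this rule. The count of 0 was thus near the background, and ABCD3 was not past -0.5 either. ACAA1, the peroxisomal thiolase, was the lowest with 11653 and 8290 counts, at -0.46 (-0.50 to -0.42). PEX19, the import receptor for peroxisomal membrane proteins, was the highest at 0.15 (0.073 to 0.22). ABCD3 thus lay between ACAA1 and the other 8 genes of this list.

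**Figure D3:**
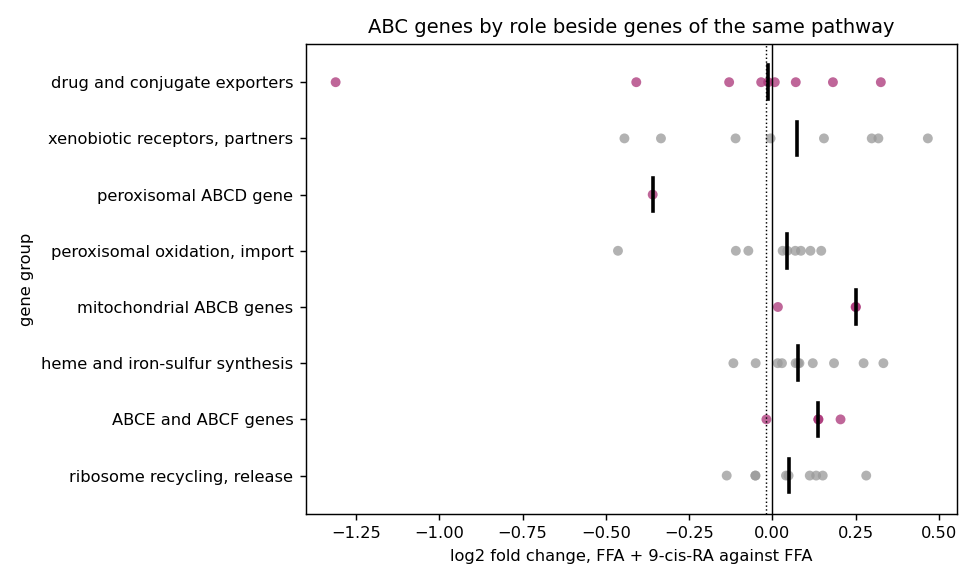
Log2 fold change of FFA + 9-cis-RA against FFA (horizontal axis) for ABC genes grouped by role (colored points) and for listed genes of the matching pathway (gray points), with vertical bars for the median of each row and a dotted line for the median of all genes. ABCC11 at -1.31 stands outside the range of every pathway row, the peroxisomal row holds ABCD3 alone, and the 3 mitochondrial ABC genes lie above 0.

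The mitochondrial transporters described, ABCB6, ABCB8 and ABCB10 of subfamily B, were on the upper side of 0. ABCB10, an inner membrane protein needed for heme synthesis in erythroid cells (chr1:229516582-229558707, minus strand), had 2348 and 2741 counts, or 9.05 and 11.1 FPKM. Its log2 fold change was 0.25 (interval 0.17 to 0.33). ABCB8, a protein of mitochondrial potassium and iron handling (chr7:151028422-151047782, plus strand), had 2513 and 2931 counts and the same value, 0.25 (0.17 to 0.33). ABCB6, a porphyrin transporter, had 519 and 515 counts, at 0.016 (-0.16 to 0.20).
Intervals thus left out 0 for ABCB8 and ABCB10 and included it for ABCB6. Another gene on the same strand overlaps 54.6% of the ABCB6 exons, and reads shared with it were not counted. The 3 genes had summed counts of 5380 and 6187, a log2 ratio of 0.23 (0.18 to 0.28), and a median of 0.25.

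Of the 11 genes of heme and iron-sulfur synthesis, 6 had an interval above 0 and 1 below 0, beside 31.1% and 33.2% of all genes with at least 200 counts, and their median was 0.077. FECH, the ferrochelatase that makes heme, was the highest with 2433 and 3007 counts, at 0.33 (0.26 to 0.41), and NFS1, the cysteine desulfurase, followed at 0.27 (0.21 to 0.33). ISCU, the scaffold on which iron-sulfur clusters are built, was the lowest with 3109 and 2812 counts, at -0.12 (-0.19 to -0.043). None was past 0.5 in either direction, against 2.79% higher and 6.48% lower of all genes with at least 200 counts.

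The lysosomal transporters ABCB9 and ABCD4 were both higher. ABCB9, a peptide transporter (chr12:122920951-122981649, minus strand), had 1172 and 1437 counts, or 1.45 and 1.87 FPKM, with a log2 fold change of 0.32 (0.21 to 0.43). ABCD4, which releases cobalamin from lysosomes, had 2532 and 2687 counts, at 0.11 (0.034 to 0.19). Of its cobalamin partners, LMBRD1 stood at 0.040 (-0.12 to 0.20) and MMADHC at 0.14 (0.086 to 0.20), while MMACHC had 1113 and 789 counts, at -0.47 (-0.60 to -0.34). ABCD4 shares 6.99% of its exons with another gene on the same strand.

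The transporters of phospholipid and other lipids comprised all of subfamily A, ABCB4 and ABCG4. ABCB4, the canalicular phosphatidylcholine floppase (chr7:87401697-87480435, minus strand), had 936 and 735 counts, or 1.99 and 1.65 FPKM. Its log2 fold change was -0.32 (interval -0.46 to -0.18). It lies 23197 bases from ABCB1 with no coding gene between, and both neighbors were lower. Per length ABCB1 was 11.1-fold of ABCB4 in FFA (10.4 to 11.9) and 12.7-fold with 9-cis-RA (11.8 to 13.7). These ratio intervals overlapped, while the fold change intervals did not, with ABCB4 at most at -0.180 and ABCB1 at least at -0.177. The overlap is therefore not read as an equal ratio.

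Within subfamily A, ABCA2 (chr9:137007234-137028922, minus strand) and ABCA3 (chr16:2275881-2340746, minus strand) were the most abundant and differed in direction. ABCA2, an endolysosomal lipid transporter, had 4926 and 4132 counts, or 7.04 and 6.23 FPKM, at -0.23 (-0.29 to -0.17). ABCA3, which loads phospholipid into lamellar bodies of the lung, had 3929 and 4339 counts, or 8.28 and 9.64 FPKM, at 0.17 (0.11 to 0.23). ABCA2 was thus the 1 well-counted gene of the subfamily that was lower.
ABCA5 had 954 and 1079 counts, at 0.21 (0.078 to 0.33). ABCA7, which exports phospholipid to apolipoproteins, had 1496 and 1649 counts, at 0.17 (0.066 to 0.27). ABCA4, the photoreceptor flippase for retinal bound to phosphatidylethanolamine, had 122 and 137 counts, at 0.19 (-0.17 to 0.56). Intervals were above 0 for ABCA3, ABCA5 and ABCA7 and included 0 for ABCA4.

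The remaining genes of subfamily A were rare. ABCA6 had 19 counts in FFA and 6 with 9-cis-RA, or -1.49 on the log2 scale (interval -3.25 to -0.25). ABCA12, a lipid transporter of skin keratinocytes, had 14 and 2 counts, at -2.30 (-5.96 to -0.66). ABCA10 had 12 and 6 counts, at -0.87 (-2.67 to 0.55). The interval of ABCA10 included 0, those of ABCA6 and ABCA12 were wide and lay below it, and all 3 genes were below 0.03 FPKM in both libraries.
ABCA8 (2 and 2 counts), ABCA9 (2 and 4) and ABCA13 (1 and 1) were not compared. ABCA8, ABCA9, ABCA6, ABCA10 and ABCA5 form 1 run on chromosome 17 in that order, all on the minus strand and with no coding gene between. Of this run ABCA5, at its end, was the 1 gene with more than 25 counts over both libraries. ABCA10 and ABCA5 overlap at their ends, with 3.78% of the ABCA10 exons and 2.42% of the ABCA5 exons shared.

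The ribosome-associated proteins of subfamilies E and F were among the most abundant members. ABCE1, which splits ribosomes after termination (chr4:145098288-145129524, plus strand), had 8879 and 8602 counts, or 23.3 and 23.9 FPKM, at -0.018 (-0.061 to 0.025). ABCF1, a factor that associates with initiation factor eIF2 (chr6:30571393-30597179, plus strand), had 8932 and 9643 counts, or 32.7 and 37.2 FPKM, at 0.14 (0.096 to 0.18). ABCF2 had 3412 and 3857 counts, at 0.20 (0.14 to 0.27). ABCF3 had 3960 and 4274 counts, at 0.14 (0.075 to 0.20).
The ABCF genes thus stood close together, between 0.14 and 0.20, with every interval above 0, while that of ABCE1 included 0. Of all genes with at least 200 counts, 31.1% had an interval above 0. A fusion entry, ABCF2-H2BK1, overlaps 37.1% of the ABCF2 exons and had 0 counts in both libraries, and reads shared by the pair were not counted. The 9 listed genes of ribosome recycling and release had a median of 0.048. Past 0.5 in either direction were 0 of them, against 2.79% higher and 6.48% lower of all genes with at least 200 counts. The listed genes ran from MCTS1 at -0.14 (-0.24 to -0.031) to LTN1, a ligase for stalled chains, at 0.28 (0.19 to 0.37). Of the 9, 6 had an interval above 0 and 2 below 0, beside 31.1% and 33.2% of all genes with at least 200 counts.

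ABCC6, a liver transporter that releases ATP and protects soft tissue from mineralization, lies 5853 bases from ABCC1 (chr16:16148928-16223522, minus strand). It had 2471 and 2646 counts, at 0.13 (0.047 to 0.21). Its near-identical pseudogenes ABCC6P1 and ABCC6P2 had 1293 and 1326 counts and 237 and 222 counts, and reads that match both were not counted. The counts of ABCC6 are therefore uncertain.

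The ion channel and its relatives had too few counts to be compared. CFTR was at 0 in both libraries. The sulfonylurea receptors had 1 and 3 counts for ABCC8 and 0 and 2 for ABCC9. Their potassium channel partners KCNJ8 and KCNJ11 had 0 in both and 97 and 91 counts. ABCB5 and ABCD2 were at 0. ABCG4, a sterol transporter of the nervous system that the rule by name keeps in the family, had 0 and 3 counts. A count of 0 allows a level of up to 0.0493 CPM in FFA and 0.0520 with 9-cis-RA, the value of 3 counts.

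By subfamily, the medians of the log2 fold change lay between -0.12 and 0.33. Of all genes compared, 9751 of 20431 were above 0. Subfamily A had a median of -0.029 over 8 genes, with 4 on each side of 0, and 0.17 over the 5 genes with at least 200 counts. With total counts its median over 8 genes was 0.020, so its sign is not set. Subfamily B had a median of 0.13 over 6 genes, with 4 above 0, and a log2 ratio of summed counts of 0.033 (0.0011 to 0.066). In subfamily C the median was -0.0029 over 8 genes, with 4 on each side of 0 and with a positive sign under TMM and total counts. Its summed counts gave -0.28 (-0.30 to -0.27), and 0.038 (0.0082 to 0.067) without ABCC2.
Subfamily D had a median of -0.12 over ABCD3, at -0.36, and ABCD4, at 0.11, whose intervals lay on opposite sides of 0. Subfamily F had a median of 0.14 and spanned 0.14 to 0.20. Subfamilies E and G had 1 compared gene each, ABCE1 at -0.018 and ABCG2 at 0.33. The range of values within B, C and D was wider than the gap between the lowest and the highest subfamily median, as was that within A with its rare genes. Over the 5 genes of A with at least 200 counts, from -0.23 to 0.21, it was slightly narrower than that gap. No test between subfamilies was made.

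**Figure D4:**
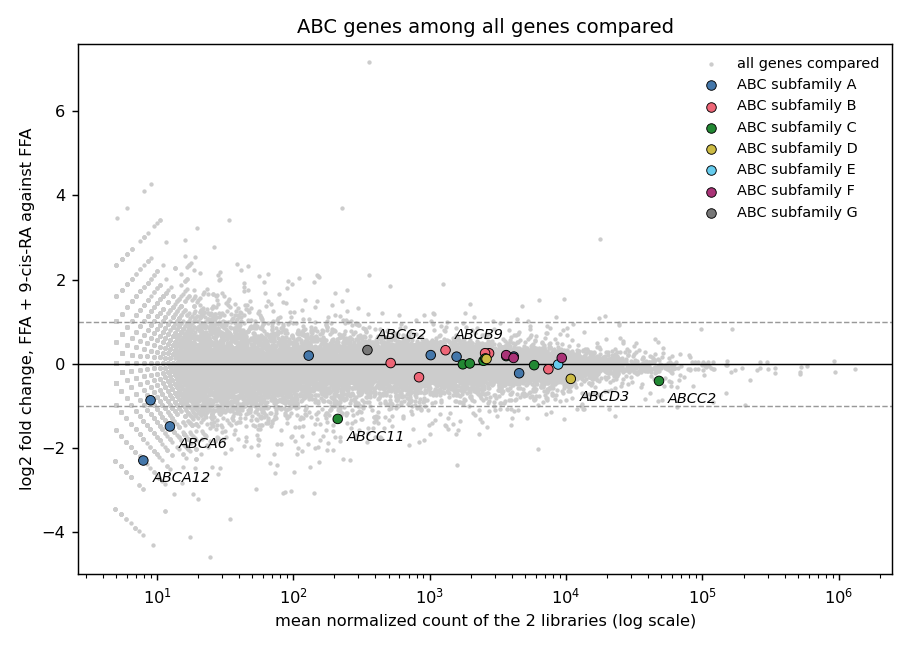
Log2 fold change of FFA + 9-cis-RA against FFA (vertical axis) by mean normalized count on a log axis, with gray dots for all genes compared and colored points for the 29 ABC genes by subfamily. Dashed lines mark -1 and 1, ABCC11 is the labelled point below -1 with over 100 mean counts, and ABCA6 and ABCA12 lie in the wide spread of genes with few counts.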

How the data were processed

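The 2 libraries were stranded and made from poly(A) RNA. The values the authors deposited are counts of fragments on each gene, not normalized, from featureCounts version 2.0.1, for pairs whose 2 ends both mapped, with the reverse strand setting (2). By its defaults reads with several matches or on several genes were left out, which lowers the counts of overlapping and near-identical genes. Its fragment length check was on, and its effect was not tested. The labels name GRCh38 and DESeq2, and the aligner and annotation release were not given in the sources used here.

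Identifiers were matched to symbols (60295 of 60623) and to GENCODE release 29 (58516). Counts were scaled with size factors of DESeq2 version 1.42.0, in R version 4.3.3, and the log2 fold change used a pseudocount of 1, which understates changes of low genes, over the 20431 genes with at least 10 counts. FPKM used the exonic length in the tables and the total of 60821539 or 57669670 counts. The share of expressed genes below ABCC2 was taken over protein-coding genes with at least 10 counts. Exact intervals came from scipy version 1.17.1 in Python version 3.11.15. A gene was counted as higher or lower past 1 or -1, or past 0.5 or -0.5 with its interval on that side of 0. No model could be fitted with 1 library per group, and neither p-values nor standard errors are reported. The fold change and interval steps were tested on simulated counts with known changes. These counts held counting error only and no variation between cultures, and the other steps were not simulated.

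Every gene described is named. A few genes of the family and of the pathway lists are not reported here and were left out of their counts, sums and medians, while the shares and medians over all genes include them. Those with a normalized count of at least 100 have counts, fold change and interval, and other genes come from fixed lists of pathways and markers. The members and lists were chosen with earlier results of these data known. Alternatives were total counts, TMM factors of edgeR version 4.0.16, pseudocounts of 0.1 and 5, count minimums of 50 and 200 and none, the whole interval past the fold, and removal of loess trends (span 0.3, statsmodels version 0.14.6) on expression, length and GC content, the last chosen after seeing the data. Promoter windows are from RefSeq. Protein sequences were not used here, and plots were drawn with matplotlib version 3.10.9.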

Additional observations from a re-analysis of the deposited data

How the results depend on the processing

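Without a count minimum, 3 genes of the family were above 1 (ABCC8, ABCC9 and ABCG4, each with at most 4 counts), and the median of subfamily G became 1.17 with ABCG4 included. With a minimum of 50 or 200 counts, 1 gene was below -1 and 1 below -0.5, ABCC11 in each case. When the whole interval had to pass, 1 gene, ABCC11, was below -1 under the DESeq2 scaling. The values of the 26 genes with at least 200 counts were recomputed under 7 alternatives of scaling, pseudocount and trend. Of the 182 values, 167 lay within the counting interval of the reported value, 15 outside it and 0 reversed a gene whose interval left out 0. A sign changed in 9 cases over 6 genes, ABCB6, ABCC3, ABCC4, ABCC5, ABCC10 and ABCE1, all with intervals that included 0. TMM moved the median of all genes by 0.020 and total counts by 0.049. The family median was 0.12 with a minimum of 200 counts 0.023 with the expression trend removed and -0.0027 with the length trend removed, where the median of subfamily D was -0.19. The cause of these shifts was not tested. ABCC11 stayed between -1.37 and -1.26 and ABCC2 between -0.47 and -0.36. No paired analysis was possible because each group had 1 library, and for the same reason no library could be left out. The depth limits ABCA6, ABCA10 and ABCA12 most, whose intervals span more than 2 on the log2 scale.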

Other observations

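Besides the family, 19 entries with an ABC or CFTR name were examined, of which 15 were pseudogenes. Of these pseudogenes, 6 were at 0 in both libraries and 5 had enough counts to compare. ABCC6P1 had 1293 and 1326 counts, or 0.064 on the log2 scale (interval -0.048 to 0.18), and ABCC6P2 had 237 and 222, at -0.066 (-0.34 to 0.20). ABCA11P on chromosome 4 had 121 and 138 counts, at 0.22 (-0.15 to 0.58). The pseudogenes ABCA15P and ABCA17P on chromosome 16 had 44 and 31 counts and 11 and 11 counts. Every one of these intervals included 0. ABCA11P thus had nearly the same counts as the protein-coding ABCA4, with 122 and 137.

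The ABC genes left out of the family differed little. ABCA1, the cholesterol efflux pump of the plasma membrane, had 3103 and 3309 counts, at 0.12 (0.049 to 0.19), and ABCG8 had 980 and 823, at -0.22 (-0.36 to -0.089). ABCG5, its partner in biliary sterol secretion, had 1347 and 1334 counts, at 0.014 (-0.097 to 0.12). The antigen peptide transporters TAP1 and TAP2 stood at 0.041 (-0.032 to 0.11) and 0.0043 (-0.088 to 0.096). ABCG1 had 2 counts in each library, and the bile salt export pump gene ABCB11 had 1 and 2.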
